A study of Ascaris suum with 10 samples.

Results

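Larva-led genes are those whose transcripts in the larval library of the pig roundworm Ascaris suum stood far above every other stage and tissue profiled. A gene belonged to the set when it had 50 RPKM or more in larva and at most 20% of that larval value in each of the 7 other columns of the table. RPKM is a read count corrected for gene length and for how many reads a library yielded. By this rule 170 of 15446 genes (1.1%) were larva-led. The members were chosen by the RPKM values of all 8 columns, so the lead of larva over the other columns describes the choice and was not tested. Taken one column at a time, genes at 50 RPKM or more in larva and at least 5 times another column made up 6.54% of the table for testis, 6.01% for muscle and 5.57% for intestine. For male carcass they made up 5.16%, for female carcass 5.13%, for ovary 2.48% and for embryo 2.32%. With the columns as deposited, ovary and embryo thus set the narrowest limits on membership.

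The series profiled polyadenylated RNA from a wild North American population of the worm, and none of the groups was treated. The larva column is 1 library of L2 larvae at 7 days. The ovary and testis columns are 1 library each, from the germinal zone of the adult gonad. Intestine is 1 adult library, muscle is 1 adult library that also holds hypodermis, and the male and female carcass libraries each hold pharynx and neurons besides muscle and hypodermis. The embryo column stands for 3 libraries, taken after 24 hr (1 cell), 46 hr (1 to 2 cells) and 64 hr (2 to 4 cells) of incubation, and is the authors' single value. The sources used here do not say whether animals were pooled. Each group other than embryo has 1 library, so there is no replicate error, every difference below compares libraries, and no p-value is given. In these bulk libraries, fewer cells of a type and less RNA per cell cannot be told apart.

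Ascaris embryos develop inside the eggshell after it has left the host, and a motile larva forms within the egg before a pig swallows it. Such a larva has differentiated body-wall muscle, hypodermis, pharynx, neurons and gut, and it builds and sheds a cuticle. The early embryo has none of these tissues, while the carcasses of adult worms hold several of them. During early cleavage this worm also removes part of its germline genome from the cells that form the body, the process the series was designed to follow.

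The table pairs its identifiers with no gene names, and no sequence or annotation was used here. The genes are therefore named by identifier, no function is given for any of them, and the gene families fixed for this report (cuticle collagens, moulting proteases, neuropeptides, larval respiratory enzymes and others) could not be counted. The larval identity of the library could not be checked against known marker genes for the same reason. Read totals are unknown, and the columns summed to between 564412 RPKM (larva) and 821149 RPKM (female carcass).

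Larval levels of the set spread widely, and few genes dominated the sum. The median was 105.25 RPKM, the lower quartile 65.7 and the upper quartile 190.2, and the highest value was 5263.8 RPKM. There were 77 genes at 50 to under 100 RPKM, 77 at 100 to under 500 RPKM and 16 at 500 RPKM or more. The 16 held 62.8% of the larval RPKM of the whole set. Among the 10 highest genes of the larva column 4 belonged to the set, and among the 100 highest 10 did. Summed, the 170 genes made up 9.40% of all larval RPKM. Their share of the RPKM of ovary was 0.971%, and of embryo 0.595%. The carcasses gave 0.236% (male) and 0.212% (female), and the share was 0.114% for intestine, 0.0989% for testis and 0.0773% for muscle.

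**Figure D1:**
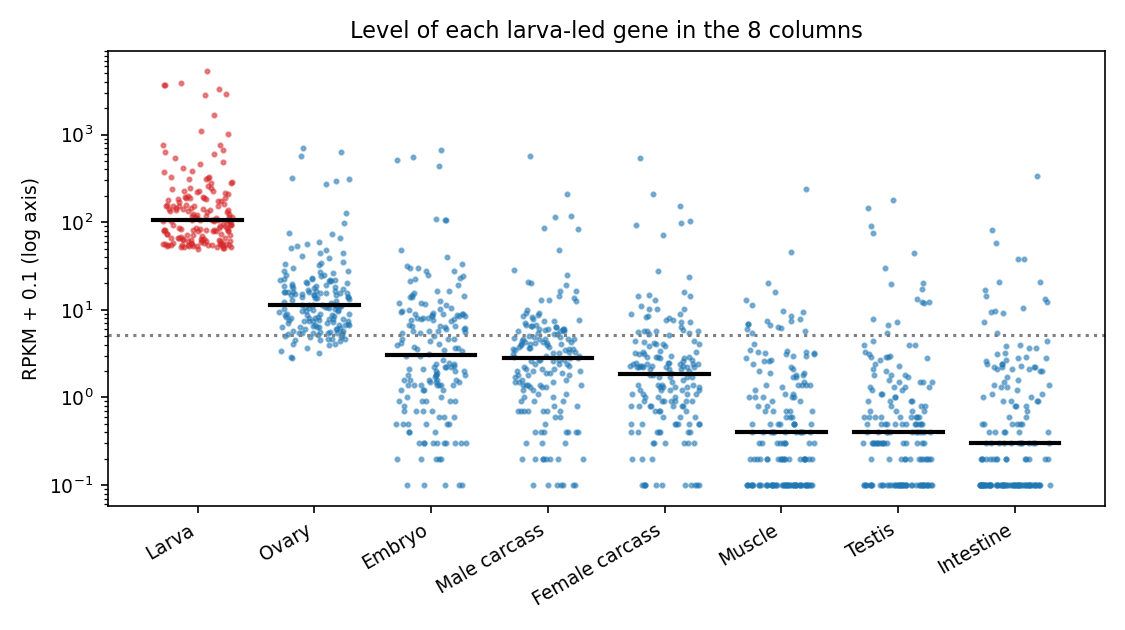
RPKM of each of the 170 larva-led genes in the 8 columns (vertical log axis, RPKM + 0.1), with a black bar at the median and a dotted line at 5 RPKM. Medians run from 105.25 RPKM in larva through 11.3 in ovary and 2.95 in embryo to 0.2 in intestine, and the ovary points form the tightest cloud outside larva.

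Outside larva the set was highest in ovary, lower in embryo and the carcasses, and lowest in muscle, testis and intestine. The order of embryo and the carcasses depended on the scale of the columns. Rescaled by the median of ratios with larva kept as deposited, the median was 1.97 RPKM in embryo against 5.39 in male and 3.15 in female carcass, and by the upper quartile 2.13 against 4.83 and 2.68. As deposited, the median level was 11.3 RPKM in ovary, 2.95 in embryo, 2.75 in male carcass and 1.75 in female carcass. It was 0.3 RPKM in muscle, 0.3 in testis and 0.2 in intestine. Over all genes the median was 7.3 RPKM in ovary, 11.3 in embryo, 4.3 and 4.7 in the male and female carcass, 2.5 in muscle, 3.3 in testis and 1.7 in intestine. Ovary was thus the only column outside larva in which the median of the set stood above the median of all genes. Ovary was also the column in which 0 of the 170 genes were listed at 0. That number was 5 in embryo, 7 and 11 in the male and female carcass, 45 for testis, 50 for muscle and 67 for intestine.

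As deposited, the column ranking next to larva was ovary for 125 genes (73.5%) and embryo for 30 (17.6%). It was male carcass for 6, intestine for 4, female carcass for 3, muscle for 2 and testis for 0. With ovary set aside, embryo was next for 88 genes and male carcass for 48, followed by female carcass (13), testis (7), intestine (7) and muscle (7).

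The gene highest in larva was ASG06431, with 5263.8 RPKM there, 710.5 in ovary, 508.7 in embryo, 209.8 and 113.2 in the female and male carcass, 44.8 in testis, 7.2 in intestine and 6 in muscle. The next highest, ASG01436, had 3927 RPKM in larva and 315.4 in ovary, but 0.2 in embryo, 3.7 and 2.8 in the male and female carcass and 1.6 in muscle, and was listed at 0 in testis and intestine. These 2 genes show the main contrast within the set. Their ovary values were 13.5% and 8.03% of larva, while their embryo values were 9.66% and 0.00509% of larva.

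The genes with the largest ratio of larva to the highest other column plus 1 RPKM were ASG01566 and ASG08536. ASG01566 stood at 176.5 RPKM in larva, 7.8 in ovary and at most 0.9 in any other column. ASG08536 stood at 173.9 RPKM in larva, 7.8 in ovary and 0.2 in embryo and was listed at 0 elsewhere. Even for these most larva-confined genes, ovary was the highest other column, at 4.42% and 4.49% of larva.

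Ovary levels followed larval levels closely across the set. The ovary value was a median of 9.78% of the larval value, with a lower quartile of 8.40% and an upper quartile of 11.4%. The rule caps this percentage at 20% and sets no lower limit, yet the lowest value among the 170 genes was 4.42%. In total 145 genes lay between 5% and 15%, 5 lay below 5% and 20 above 15%. All 170 genes were detected in ovary at 1 RPKM or more (lowest 2.7 RPKM), and 153 (90%) reached 5 RPKM, against 56.5% of all genes. Detection in ovary follows partly from the level demanded in larva, since 5% to 10% of 50 RPKM already exceeds 1 RPKM.

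The percentage hardly varied with the larval level. In 4 bins of 42 or 43 genes from the lowest to the highest larval level, the median ovary percentage was 9.33%, 10.5%, 9.84% and 9.35%. The median embryo percentage over the same bins was 6.33%, 3.04%, 1.60% and 1.65%. That of male carcass was 3.05%, 3.41%, 1.60% and 1.42%. Across the 170 genes, Spearman's rho with larva was 0.91 for ovary, 0.30 for male carcass, 0.26 for female carcass, 0.20 for testis, 0.16 for embryo, 0.11 for intestine and 0.05 for muscle. These coefficients describe genes measured in the same pair of libraries and are shaped by the cap and by the minimum of the rule.

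**Figure D2:**
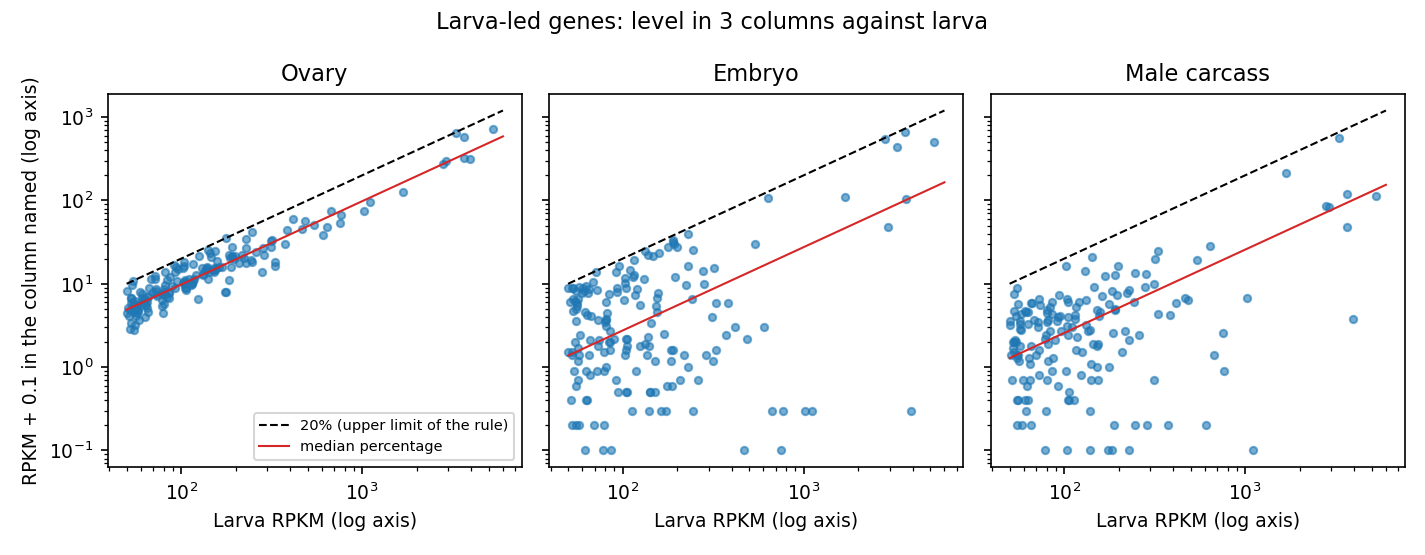
Level of the 170 larva-led genes in ovary, embryo and male carcass (RPKM + 0.1, log axis) against larva (RPKM, log axis). The dashed line is the 20% limit of the rule and the red line the median percentage of the column (9.78% in ovary, 2.75% in embryo, 2.57% in male carcass). Ovary points follow their line, whereas embryo and male carcass points scatter from the dashed line to the bottom of the plot.

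The spread of percentages was far wider in the other columns. The upper quartile was 1.36 times the lower quartile in ovary, against 5.73 and 7.18 times in the male and female carcass and 14.6 times in embryo. Within 1.5 times of its own column's median lay 131 genes in ovary, 50 and 36 in the male and female carcass and 25 in embryo. Below 1% of the larval value lay 0 genes in ovary and 50 in embryo. The male carcass had 48 such genes, the female carcass 69, muscle 120, testis 128 and intestine 131.

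An ovary value was also listed for genes with nearly nothing in the other columns. There were 11 genes below 1 RPKM in all 6 columns other than larva and ovary. Their larval levels ran from 61.6 to 1108.3 RPKM (median 113) and their ovary levels from 5.4 to 96.8 RPKM (median 8.4). Their ovary percentage had a median of 8.41%, with a lowest value of 4.42% and a highest of 11.7%. The most abundant of them was ASG07223, at 1108.3 RPKM in larva and 96.8 in ovary, and at most 0.8 RPKM in any other column. The 44 genes below 1 RPKM in embryo had a median ovary percentage of 8.81%, against 9.45% for the 56 genes at 1 to under 5 RPKM in embryo and 10.8% for the 70 genes at 5 RPKM or more. The median ovary percentage was thus somewhat higher where a gene was present in embryo. Whether larval RNA or reads carried over into the ovary library add to these ovary values was not tested. The ovary levels given for these genes are therefore levels in the library as deposited, and expression in the ovary is not shown by them.

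Among the 16 genes at 500 RPKM or more in larva, the ovary percentage had a median of 8.73%. The highest belonged to ASG09833 (638 RPKM in ovary, 3288.1 in larva, 19.4%) and ASG09580 (573.3 and 3667 RPKM, 15.6%). The lowest belonged to ASG01432 (38.9 and 604.3 RPKM, 6.44%) and ASG14964 (53 and 751.3 RPKM, 7.05%). The high and the low pair also differed elsewhere. ASG09833 stood at 179.9 RPKM or more in all 8 columns and ASG09580 at 7.8 RPKM or more. In the 6 columns besides larva and ovary, ASG01432 did not exceed 2.9 RPKM and ASG14964 did not exceed 2.5 RPKM. Over the whole set, 16 of the 20 genes above 15% in ovary were at 5 RPKM or more in embryo, as were 54 of the other 150.

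Dropping ovary from the rule showed how far the cap shaped these values. With the ovary column ignored, 203 genes qualified, 33 more than the set. Their ovary percentage had a median of 10.3% and quartiles of 8.76% and 15.6%, so the lower part of the distribution was little moved and a tail opened above 20%. Of the 33 added genes, 18 lay between 20% and 40% of larva and 15 above 40%, and 7 exceeded the larval value. With embryo ignored as well, a choice made after seeing the data, 497 genes qualified and their ovary percentage was wider and higher, with a median of 19.4% and quartiles of 10.4% and 35.0%.

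Genes led by other columns under the same rule stood in ovary at lower median percentages. The 194 embryo-led genes had a median ovary value of 5.08% of embryo, with quartiles of 1.57% and 11.3%, and 6 of them were listed at 0. For the 167 intestine-led genes the median was 0.845% of intestine, with quartiles of 0.389% and 2.45%. For the 821 testis-led genes it was 3.60% of testis, with quartiles of 2.81% and 4.74%, and 0 were listed at 0 in ovary. In the opposite direction, ovary-led genes (70) stood in larva at a median of 2.77%, with quartiles of 2.35% and 4.77%. Narrow ranges were not particular to larva and ovary. Testis-led genes stood in larva at a median of 1.27% of testis (quartiles 0.999% and 1.63%), with 0 listed at 0. In male carcass their median was 0.755% (quartiles 0.531% and 1.14%), with 2 listed at 0. No test of these differences was possible with 1 library a group.

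In embryo the set ranged from genes that were already present to genes that were nearly absent there, with many in between. At 5 RPKM or more in embryo there were 70 genes (41.2%), against 61.2% of all genes, and the cap of the rule lowers this share by construction. Another 56 stood between 1 and 5 RPKM, and 44 stood below 1 RPKM, of which 5 were listed at 0. Relative to larva, 41 genes (24.1%) reached 10% or more in embryo and 50 (29.4%) did not reach 1%. Among the 1748 other genes at 50 RPKM or more in larva these shares were 93.1% and 1.26%. The cap of the rule bears on both shares, and how much of the difference it makes was not tested.

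The 70 embryo-positive genes had a median of 10 RPKM in embryo and 118.6 in larva. The highest in embryo were ASG09118 and ASG13697. ASG09118 stood at 660.8 RPKM in embryo, 3656 in larva and 319.3 in ovary, with 72.3 in female carcass, 48.1 in male carcass, 12.3 in testis, 3.6 in intestine and 2.5 in muscle. ASG13697 stood at 550.1 RPKM in embryo, 2811 in larva and 271 in ovary, with 97.4 and 84.9 in the female and male carcass, 76 in testis, 20.6 in intestine and 45.1 in muscle. In both, embryo ranked directly after larva and above ovary.

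The 44 embryo-negative genes (below 1 RPKM) had a median of 105.45 RPKM in larva, 9.15 in ovary and 0.3 in embryo. This class held 6 of the 16 most abundant larva-led genes (500 RPKM or more). Besides ASG01436, ASG07223 and ASG14964 they were ASG01437 (1021.3 RPKM in larva, 74 in ovary), ASG06481 (766.5 and 66.3 RPKM) and ASG00513 (671.7 and 74.6 RPKM), named after their values were seen. Their embryo values were 0.2 RPKM for all but ASG14964, which was listed at 0. The 16 most abundant larva-led genes thus divided into 9 at 30 RPKM or more in embryo and 7 at 2.9 RPKM or less.

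**Figure D3:**
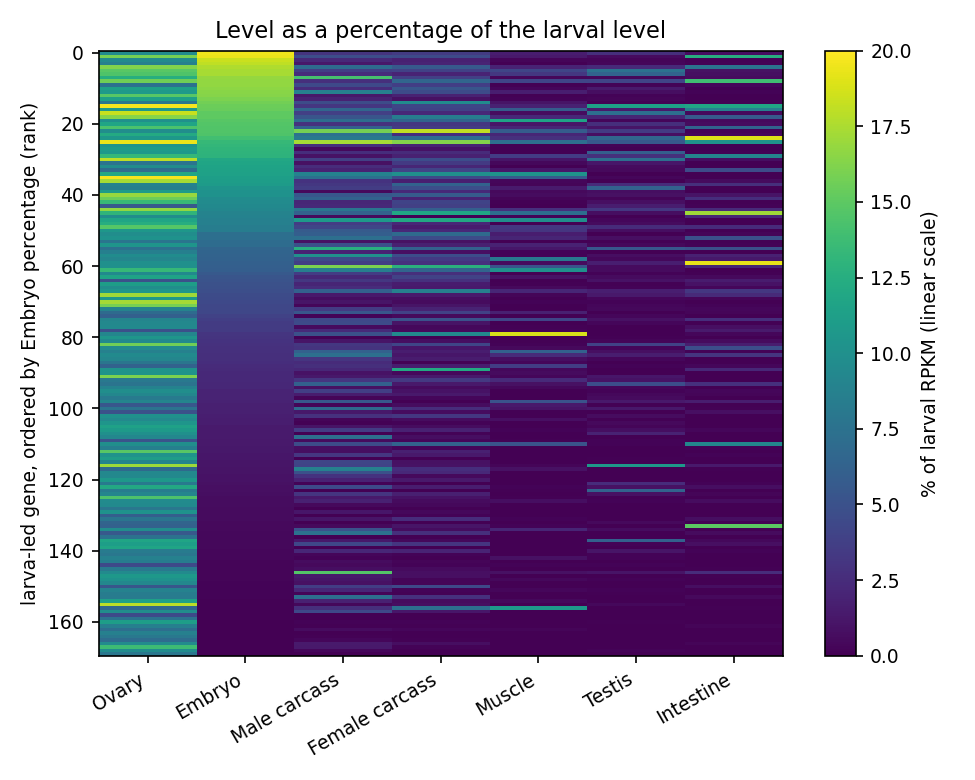
Level of each of the 170 genes in the 7 other columns as a percentage of its larval level (colour, linear from 0 to 20%), with genes ordered from the highest to the lowest embryo percentage. The ovary column stays coloured from top to bottom (4.42% to 19.7%), while embryo falls to 0 and the remaining columns are dark for most genes.

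Ovary and embryo were also compared directly, although the rule limits both columns. At a difference of at least 2 on the log2(RPKM + 1) scale, which is at least 4-fold and understates the change of low genes, 61 of the 170 genes (35.9%) were higher in ovary than in embryo, against 4.84% of all genes. In these 61 the median was 15.5 RPKM in ovary and 0.6 in embryo. In the opposite direction the count was 0 of 170, against 9.93% of all genes. At any size, 138 genes (81.2%) were higher in ovary, against 36.1% of all genes, and 32 were higher in embryo. Both columns are capped by the rule, which removes genes high in embryo. Whether larval RNA or reads carried over into the ovary library add to these counts was not tested. Among the 497 genes that qualified without either column, 82 (16.5%) were higher in ovary and 43 (8.65%) were higher in embryo. Among the 1748 genes at 50 RPKM or more in larva that are not in the set, the shares were 7.04% in each direction.

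With the columns as deposited, embryo was the column that most often kept larval genes out of the set. This ranking was not repeated on rescaled columns. Larva had 50 RPKM or more for 1918 genes, of which 604 exceeded 20% of the larval value in all 7 other columns and 137 in exactly 1. That 1 column was embryo for 86 genes, ovary for 33, intestine for 9, testis for 4, muscle for 4, male carcass for 1 and female carcass for 0. The 86 genes kept out by embryo alone had a median of 105.05 RPKM in larva and 55.1 in embryo, with ovary at a median of 14.9% of larva.

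The carcasses held a minority of the larva-led genes, and mostly at low levels. At 5 RPKM or more there were 48 genes in male carcass (28.2%, against 47.3% of all genes) and 37 in female carcass (21.8%, against 48.5%). Both carcasses had 26 of them, male carcass alone 22 and female carcass alone 11, so that 59 genes (34.7%, against 55.3%) were present in either. Few were close to the larval level. Only 8 genes reached 10% of larva in male carcass and 6 in female carcass.

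Abundant larval genes made up much of the carcass group. The 59 genes had a median of 162 RPKM in larva, against 86.6 RPKM for the 111 genes in neither carcass. In the bin of the highest larval levels, 25 of 43 genes were present in male carcass, and in the bin of the lowest 4 of 43. As a median percentage of larva the order of these bins was opposite, at 1.42% and 3.05%.

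The highest gene in both carcasses was ASG09833, at 568.7 RPKM in male and 534.7 in female carcass, or 17.3% and 16.3% of its 3288.1 RPKM in larva. It was also the highest of the set in intestine (337.1 RPKM), muscle (239.8 RPKM) and testis (179.9 RPKM). ASG09579 followed in male carcass, at 212.3 RPKM, with 103.2 in female carcass, 82.2 in intestine and 20.1 in muscle against 1684.7 in larva. ASG06431 followed in female carcass, at 209.8 RPKM. In all 8 columns 7 genes reached 5 RPKM, and 5 of these are ASG09833, ASG09579, ASG06431, ASG13697 and ASG09580.

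Larva-led genes found in the carcasses were often low in muscle. Muscle reached 5 RPKM for 18 of the 59 (30.5%), against 65.5% of all genes present in either carcass. The 59 had medians of only 7 RPKM in male and 5.7 RPKM in female carcass, close to that threshold. The share of all genes is not matched for such levels. In 23 of the 59, muscle stood below 1 RPKM. At the 4-fold threshold, 30 genes of the set (17.6%) were higher in male carcass than in muscle, against 6.36% of all genes, and their medians were 7.95 and 0.1 RPKM. For female carcass against muscle the count was 18 (10.6%), against 6.58%. The opposite differences were 0 of 170 for both carcasses, against 1.35% and 1.31% of all genes. Muscle and both carcasses are capped by the rule. Of the 497 genes found without ovary and embryo in the rule, 10.1% were higher in male carcass than in muscle. For female carcass that share was 15.9%. Among the 1748 other genes at 50 RPKM or more in larva, the shares were 5.32% (male) and 7.78% (female). By their labels the carcass libraries hold pharynx and neurons beyond what the muscle library holds. Which tissue carried these transcripts was not tested. Intestine shared 14 of the 59 genes, and 37 were present in neither muscle nor intestine. Shares of all genes were not counted for these overlaps, and carcass values close to the threshold limit them too.

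Male and female carcass gave much the same picture for the set. Spearman's rho between them was 0.81 across the 170 genes, the highest of any pair of columns outside the larva and ovary pair. At the 4-fold threshold 4 genes (2.35%) were higher in male carcass, against 3.59% of all genes, and 0 were higher in female carcass, against 2.40%. The 4 are ASG12356 (20.8 RPKM in male, 1.2 in female), ASG03937 (12.4 and 1.3), ASG00340 (6 and 0.2) and ASG10011 (3.2 RPKM in male, listed at 0 in female), named after their values were seen. All 4 were low in testis, at 1.5 RPKM or less. At any size 108 genes (63.5%) were higher in male carcass, against 46.5% of all genes, and 56 were higher in female carcass. Among the 59 genes present in either, the split was 34 and 25, with a median log2(RPKM + 1) difference, male minus female, of 0.31. Over all genes present in either carcass that median was -0.09. Many of these differences lie between low values, since the medians of the set were 2.75 RPKM in male and 1.75 in female carcass. Of the 497 genes found without ovary and embryo in the rule, 4 were at least 4-fold higher in male carcass and 8 in female carcass.

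**Figure D4:**
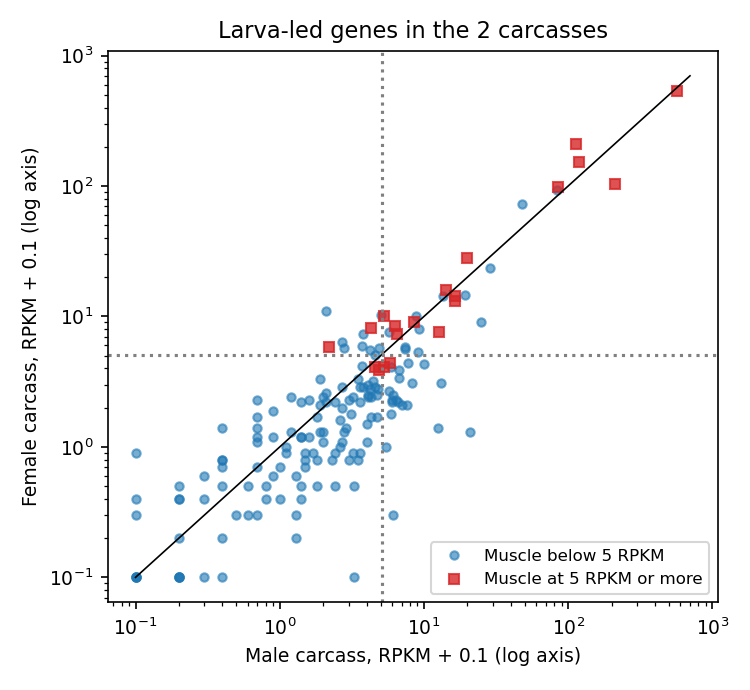
Level of the 170 larva-led genes in female carcass against male carcass (RPKM + 0.1, log axes), with a line of equality and dotted lines at 5 RPKM. Red squares are the 20 genes at 5 RPKM or more in muscle. Most points lie in the lower left, where 111 genes are below 5 RPKM in both carcasses.

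Presence in embryo and presence in a carcass overlapped in the set as they did in the whole table. Of the 70 embryo-positive genes at 5 RPKM or more, 40 (57.1%) were also present in a carcass, against 19 of the other 100 (19%). Over all genes the same shares were 71.3% of those present in embryo and 30.0% of those not. Among the 1748 other genes at 50 RPKM or more in larva they lay closer together, at 94.7% and 76.9%. The latter share rests on 78 genes. The remaining 30 embryo-positive genes were in neither carcass, and 81 genes were in neither embryo nor a carcass. The 40 shared genes had higher larval levels (median 184.05 RPKM) than the 81 (median 86.6 RPKM), and the part of the larval level in this association was not tested. Spearman's rho between embryo and female carcass was 0.64, and between embryo and male carcass 0.52.

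Testis, intestine and muscle had few of the genes. At 5 RPKM or more there were 17 in testis (10%, against 42.7% of all genes), 17 in intestine (10%, against 35.5%) and 20 in muscle (11.8%, against 37.9%). Ovary and testis differed for most of the set, with 135 of 170 genes (79.4%) at least 4-fold higher in ovary, against 19.9% of all genes, and 0 higher in testis, against 10.4%. Both columns are capped by the rule, and carry-over of larval RNA or reads into the ovary library was not tested. Among the 1748 other genes at 50 RPKM or more in larva 33.2% were higher in ovary than in testis, and among the 497 genes found without ovary and embryo in the rule 64.0% were. Of the 17 testis genes, 14 (82.4%) were also present in embryo, against 78.6% of all genes present in testis. Intestine was the highest column after larva for 4 genes. Of these, ASG00470 and ASG08226 each had 37.7 RPKM in intestine against 199.2 and 194.9 RPKM in larva. Muscle was the highest for ASG06100 (16 RPKM, against 85.3 in larva) and ASG04987 (8.4 RPKM, against 78.5 in larva). These 4 were named after their values were seen.

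Counting all combinations at 5 RPKM, the commonest was ovary alone, with 66 genes (38.8%). Ovary with embryo followed with 23 genes, no other column with 12, and ovary with male carcass with 11. Shares of all genes were not counted for these combinations. Ovary stood at a median of 9.78% of larva, so genes at the 50 RPKM minimum lie near the 5 RPKM cut there. Expression in the ovary is not shown by these counts. The 12 genes present in no other column had a median of only 55.05 RPKM in larva, and their ovary values lay between 2.7 and 4.9 RPKM, a median of 7.71% of larva. All 12 thus had an ovary value, below the level counted as present.

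**Figure D5:**
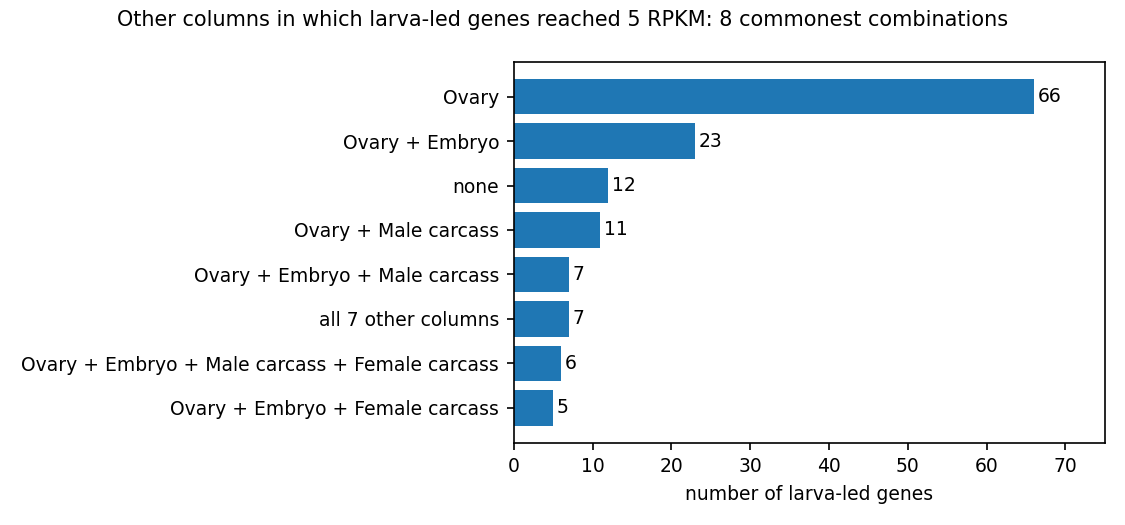
Number of larva-led genes (horizontal axis) for the 8 commonest combinations of other columns at 5 RPKM or more. Ovary alone accounts for 66 of 170 genes, and the bars for combinations with embryo or a carcass are shorter. Shares of all genes were not counted for these combinations.

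Near the thresholds the set has no sharp edge. At 50 to under 55 RPKM in larva there were 14 members, and at 45 to under 50 RPKM there were 10 genes that met the 20% limit. ASG04861, at 50 RPKM in larva and 8.8 in embryo, was just inside, and ASG04120, at 49.6 RPKM in larva and 3.6 in ovary, was just outside. With the highest other column at 18% to 20% of larva there were 13 members, and above 20% and up to 22% there were 6 genes. ASG09212, at 178 RPKM in larva and 35.1 in ovary (19.7%), was just inside. ASG00614, at 148.7 RPKM in larva and 29.8 in embryo (20.04%), was just outside.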

How the data were processed

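The deposited table holds RPKM values for 15446 genes in 8 columns, rounded by the authors to 1 decimal. The submitters' processing notes name TopHat and Cufflinks without versions. The sources used here state no genome build, annotation, gene lengths or use of strand in counting. Per the labels' protocols, RNA was selected for poly(A), fragmented, copied with random primers and amplified over 17 PCR cycles. Without gene lengths no read counts can be recovered from rounded RPKM, so the depth is unknown, and no interval or detection limit is given. A value of 0 is called listed at 0.

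Columns were assigned to samples by title for 7 columns. The embryo column stands for 3 libraries, and how they were combined is not stated. Columns of samples outside the series numbered 0.

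The members, the gene lists and the rules were chosen with earlier results of these data known. Present means 5 RPKM or more, detected means 1 RPKM or more, and a called difference is at least 2 on the log2(RPKM + 1) scale. The results are counts, medians and percentages of the larval value. For the set as deposited, calls and presence in each column are given beside the share of all genes. Some are also given beside the share of the other genes at 50 RPKM or more in larva. Several other counts have no such share. They include combinations of columns, overlaps of the carcasses with intestine, values below a low limit and carcass counts by percentage of larva. Identifiers were named by a written rule (at most 2 per pattern, the extremes in each column), with exceptions stated in the text. Python 3.11.15, pandas 2.3.3, numpy 2.4.6 and matplotlib 3.10.9 were used. The code of the membership rule was checked by planting genes of known ratio in the deposited values, which checks the code only. Alternatives were other minimum levels, other ratios, each column left out of the rule, pseudocounts, thresholds and 3 rescalings of the columns.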

Additional observations from a re-analysis of the deposited data

How the results depend on the processing

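Under 16 alternative levels, ratios, column choices and rescalings the median ovary percentage lay between 8.52% (every other column at most 1/10 of larva) and 10.8% (at most 1/3). A move of less than the SD over genes (3.26) counts as holding. Most of these settings could hardly move the value. Leaving out testis, intestine, muscle or a carcass added at most 9 genes to the 170. Apart from the setting without ovary (10.3%), all kept a cap on ovary. The median ovary percentage was 19.4% when ovary and embryo were both left out of the rule, an alternative chosen after seeing the data. Under it 497 genes qualified. The number of larva-led genes depended on the minimum larval level, being 605 with no minimum, 296 at 20 RPKM, 93 at 100 RPKM and 16 at 500 RPKM. It was 76 at a ratio of 1/10, 256 without embryo in the rule and 101 with the columns rescaled by the median of ratios, of which 89 were among the 170. Rescaling changed the members as well as the levels. Present in embryo (70 of 170, 41.2%) were 43 of 125 genes (34.4%) with the upper quartile and 32 of 101 (31.7%) with the median of ratios, and male carcass (48 of 170, 28.2%) then had 52 (41.6%) and 39 (38.6%), so that male carcass exceeded embryo. Embryo had 126 at 1 RPKM, 35 at 10 RPKM and 41 where 10% of larva was also asked. Under those last 3 settings male carcass had 128, 19 and 8 genes, female carcass (37) had 111, 18 and 6, and ovary (153) had 96 at 10 RPKM and 76 with 10% of larva. Ovary had 97 with median-of-ratios rescaling, out of 101 members. Genes higher in ovary than embryo (61) numbered 26 with a pseudocount of 5, and 99 and 29 at log2 differences of 1 and 3. Male over female carcass (4) became 13 and 1 with pseudocounts of 0.1 and 5, and 29 and 1 at log2 differences of 1 and 3. Female over male carcass (0) became 4 at a log2 difference of 1 and 3 with a pseudocount of 0.1. Male carcass over muscle (30) became 87 and 9 with pseudocounts of 0.1 and 5, and 89 and 14 at log2 differences of 1 and 3. Median-of-ratios rescaling moved the median log2(RPKM + 1) difference of all genes by 0.38 toward ovary for ovary against embryo and from 0.33 to 0.03 for male carcass against muscle, and the counts were then 62 and 31. Why the counts moved was not tested. Relative to larva, median-of-ratios rescaling multiplied embryo by 0.667 and male carcass by 1.96. Of 83 values under an alternative, 47 held, where a count holds within 1.5 times of the reported one. They include 82 genes higher in ovary than embryo without either column in the rule, although the share fell from 35.9% to 16.5%. No paired analysis was possible because each group other than embryo has 1 library. Depth is unknown, and values near the table's step of 0.1 RPKM are coarse.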

Other observations

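Several larva-led genes carry consecutive identifiers. There were 11 such pairs among the 170 genes, involving 20 genes. They include the run ASG03109 to ASG03112, with larval levels of 384.3, 283.4, 260 and 141.5 RPKM. They also include ASG01436 with ASG01437 (3927 and 1021.3 RPKM in larva, 0.2 RPKM in embryo for both) and ASG09579 with ASG09580 (1684.7 and 3667 RPKM in larva, 110 and 104.9 in embryo). ASG09118 and ASG09119 were unlike, at 3656 and 105.5 RPKM in larva and 660.8 and 1.7 RPKM in embryo. Under the same rule there were 7 such pairs among 194 embryo-led genes, 10 among 70 ovary-led genes, 20 among 167 intestine-led genes, 160 among 821 testis-led genes and 1 among 60 male carcass-led genes. The 9 muscle-led and 2 female carcass-led genes had 0. The sources used here do not say what the numbering of the identifiers stands for, and whether neighbours in number are neighbours in the genome was not tested.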
